A study of Mus musculus with 11 samples.

Results

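The collagen genes of the mouse were examined in forelimb buds at stage E10.5, with and without an intact allele of Gmnn. Members were all genes in the count table whose symbol has the form of a collagen chain, Col followed by a type and an alpha-chain number, except the 3 cartilage chains Col2a1, Col9a1 and Col11a1. The rule found 41 genes of 26 collagen types among 47517 rows, and 28 of the 41 had enough reads to be tested, among 15821 tested genes in all. The control embryos were Gmnn +/f; Prx-Cre (5 libraries) and the mutant embryos Gmnn f/f; Prx-Cre (6 libraries), where f is a floxed allele that Cre recombinase can delete. Both groups were on the C57BL/6 background, and both carried Prx-Cre and a floxed allele, so that no library comes from a limb bud without Cre. The Prx promoter drives Cre in limb bud mesenchyme, which leaves ectoderm, blood vessels and immigrating muscle precursors as cells in which Cre is not expected to act. Gmnn encodes geminin, which holds back the licensing of DNA replication and also binds transcription and chromatin factors, and the title of the series concerns Hox gene regulation in the limb. The titles place the embryos in 4 litters: A with controls 1 and 2 and mutants 1 and 2, B with control 3 and mutant 6, C with control 4 and mutant 5, and D with control 5 and mutants 3 and 4.

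Collagens are secreted proteins of 3 alpha chains wound into a triple helix, and each type has its own chains and its own supramolecular form. Fibrillar collagens build the fibres of the interstitial matrix, type IV collagen builds the network of basement membranes, and type VI collagen forms beaded filaments around cells. Smaller classes bind to fibrils, anchor basement membranes, sit in the cell membrane or carry heparan sulfate chains. At this stage the limb bud is a core of mesenchyme under an ectoderm with its basement membrane, before cartilage is laid down.

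Total reads per library ran from 14721181 to 19733288, and collagen reads made up 0.0685% to 0.111% of them. Gmnn itself was at 180 ± 40.2 CPM (reads scaled to library size, mean ± SD, n = 5) in controls and 115 ± 16.1 CPM (n = 6) in mutants, with no overlap (edgeR quasi-likelihood test, log2 fold change -0.67, adjusted p = 0.0291). Of a list of 5 limb mesenchyme markers, all 5 were measured, and their summed level was 403 to 563 CPM in controls and 432 to 506 CPM in mutants. None passed the edgeR test, and 3 (60%) had an unadjusted p under 0.05, against 21.4% of all tested genes. These were Tbx5, lower (log2 -0.28), and Prrx2 (0.24) and Twist1 (0.25), higher. The 2 hindlimb markers together stayed at 0.841 to 6.80 CPM, and the 3 neural tube markers at 0 to 0.280 CPM. Control 5, the only control of litter D, had the lowest level of all 11 libraries in 10 of the 28 tested members (35.7%) and in 11.8% of all tested genes. Over all tested genes, control 3 (12.9%) and mutant 2 (17.2%) were the lowest library more often. The macrophage marker sum was 0.701 CPM in control 5 against 5.20 to 13.1 CPM in the other controls. Mutants 3 and 4, also of litter D, had the lowest sums of the mutants, 3.29 and 2.14 CPM. Mutant 5 had neither Xist (0.547 CPM) nor Ddx3y (0.137 CPM) at the level of the other embryos, so that its sex could not be read. Levels are bulk values, in which fewer cells of a type and less RNA per cell cannot be told apart.

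Levels were compared between genes after division by exon length, as CPM per kilobase. This length takes in every annotated exon base of a gene, not those of a single transcript. It was 12426 bases for Col1a2, 9816 for Col3a1 and 6563 for Col1a1. The order of genes, the class shares and the chain ratios given per kilobase depend on it. In controls the highest was Col3a1, the chain of type III collagen, at 21.2 ± 5.58 CPM per kilobase (SD, n = 5). Then came Col1a1 (18.98 ± 12.05), Col18a1 (15.4 ± 1.74), Col4a1 (13.98 ± 0.908) and Col1a2 (13.4 ± 4.80), in the same unit and with the same n. These 5 lay within the controls' spread of each neighbour in the order. Col4a2 followed at 9.43 ± 0.815 CPM per kilobase, below Col4a1 by more than either SD. Col26a1, a secreted collagen of little-known function, was at 7.38 ± 0.897, and the transmembrane collagen Col23a1 was at 4.35 ± 1.81 CPM per kilobase. Every other member was below Col5a2, which stood at 3.43 ± 1.03 CPM per kilobase.

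**Figure D1:**
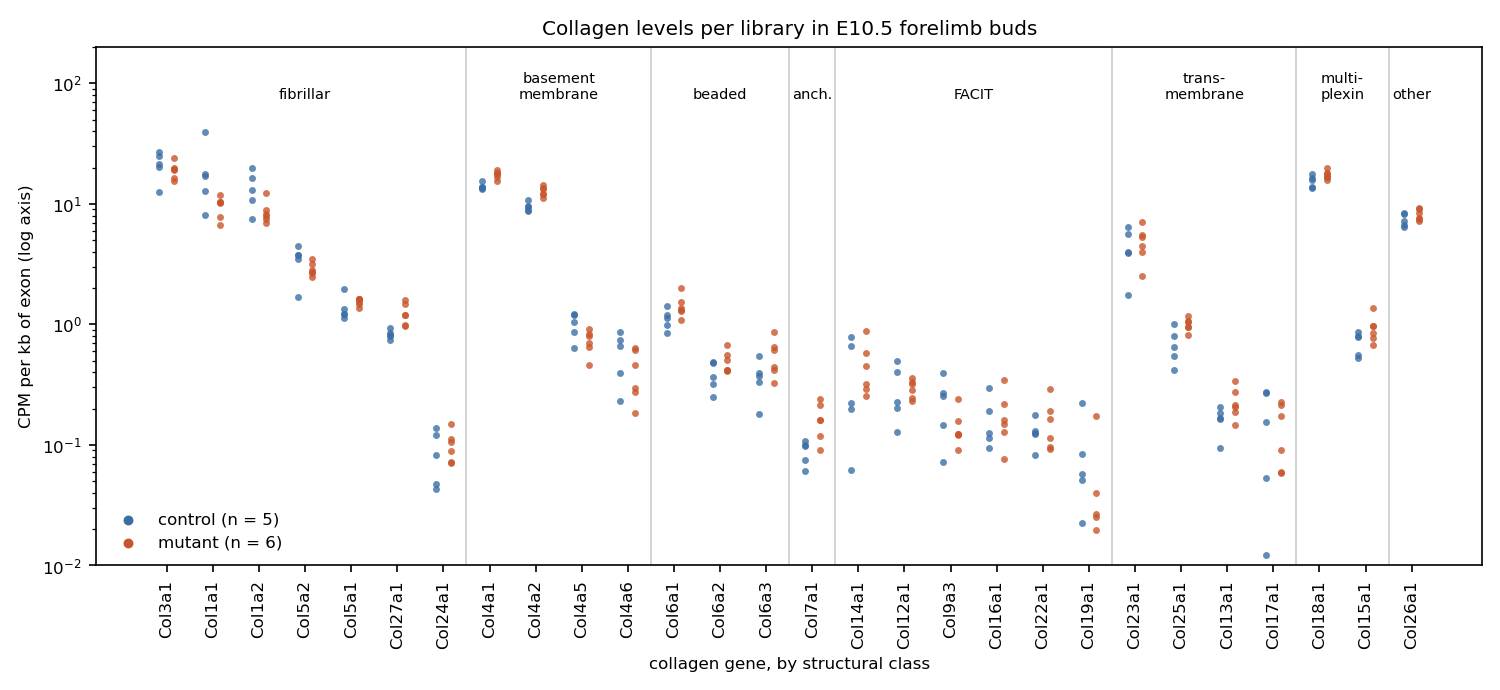
Level of the tested collagen genes in CPM per kilobase of exon on a log axis, grouped by structural class (anch. is the anchoring fibril class). Each point is a library, with 5 controls and 6 mutants in separate colours, and a level of 0 (Col19a1 in mutant 4) is off the axis. Col3a1, Col1a1 and Col18a1 had the highest control means, 21.2, 18.98 and 15.4.

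The family as a whole summed to 117 ± 19.4 CPM per kilobase in controls and 111 ± 9.75 in mutants. Fibrillar chains made up 49.7% ± 8.75 of that sum in controls and 38.6% ± 1.73 in mutants, while type IV chains made up 21.99% ± 4.26 and 28.3% ± 1.30. In controls 1 to 4 the fibrillar share was above that of every mutant, and control 5, at 36.5%, lay among the mutants (36.2% to 41.3%). Summed type IV chains were at 23.6 to 26.5 CPM per kilobase in controls and 28.9 to 34.5 in mutants, with no overlap. Summed type I chains were at 32.4 ± 13.3 and 18.1 ± 3.19 CPM per kilobase, and these ranges overlapped (15.5 to 52.3 and 13.6 to 22.5). Multiplexins, the class of Col18a1 and Col15a1, were at 16.1 ± 1.68 and 18.3 ± 1.48, and transmembrane collagens at 5.35 ± 2.08 and 6.17 ± 1.60 CPM per kilobase. Chains that bind to fibril surfaces (the FACIT class) were low, at 1.38 ± 0.247 and 1.33 ± 0.200 CPM per kilobase over 8 genes. These sums are descriptions and carry no test.

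**Figure D2:**
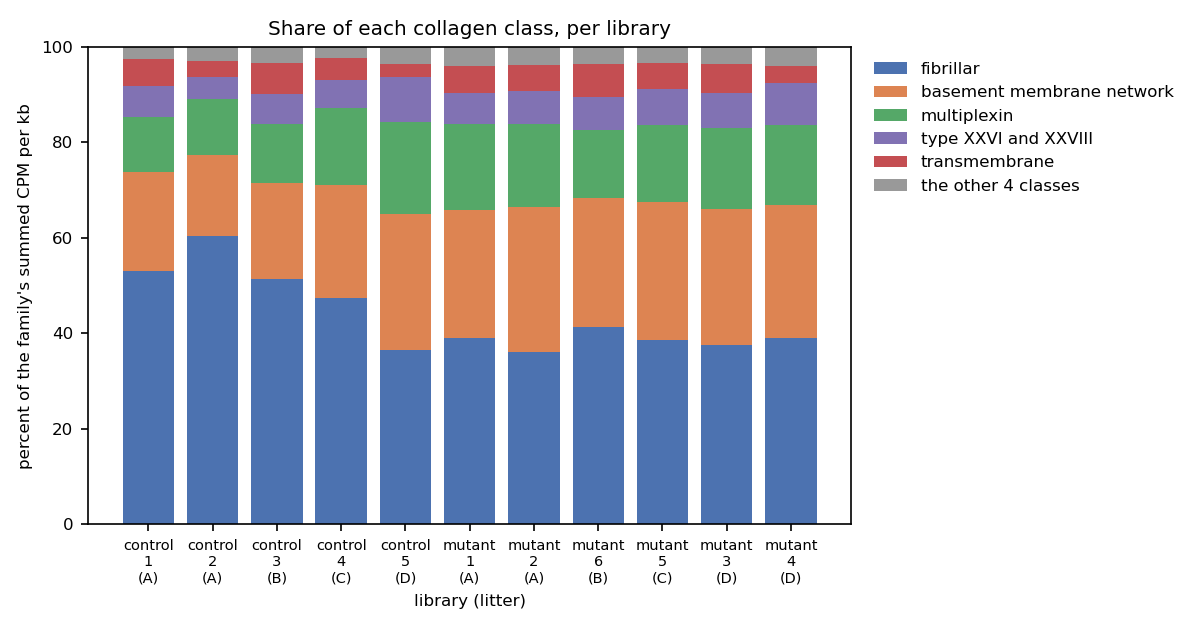
Share of each collagen class in the family's summed CPM per kilobase, in percent, for each library, with its litter in brackets. Each bar is 1 library and adds to 100%, and the fibrillar share is 36.5% to 60.3% in controls and 36.2% to 41.3% in mutants.

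Genotype was tested gene by gene within litters, over all 15821 genes. At an adjusted p under 0.05, 3 of 28 members (10.7%) differed, against 2.18% of all tested genes. All 3 were higher in mutants, where 0.702% of all genes were called higher, and 0 were lower, where 1.48% of all genes were. Unadjusted, 11 members (39.3%) had p under 0.05, 9 higher and 2 lower, against 21.4% of all genes. The median log2 fold change of mutant over control was 0.20 over the 28 members, with 20 above 0, and 0.0038 over all tested genes. The ranges of the groups did not overlap for 3 members, against 2.59% of all genes. Mutants were higher than controls in all 4 litters for 10 members and lower in all 4 for 0, while 26% of all genes kept a direction in the 4 litters. Leaving out any of 9 of the 11 libraries in turn left 0 members called by edgeR, in fits that called 1 to 15 of all genes. Without control 5 there were 5 called members (850 of all genes), and without mutant 2 there were 2 (279 of all genes). Over these 11 fits the log2 fold change stayed at 0.30 to 0.37 for Col4a1 and 0.37 to 0.52 for Col4a2.

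**Figure D3:**
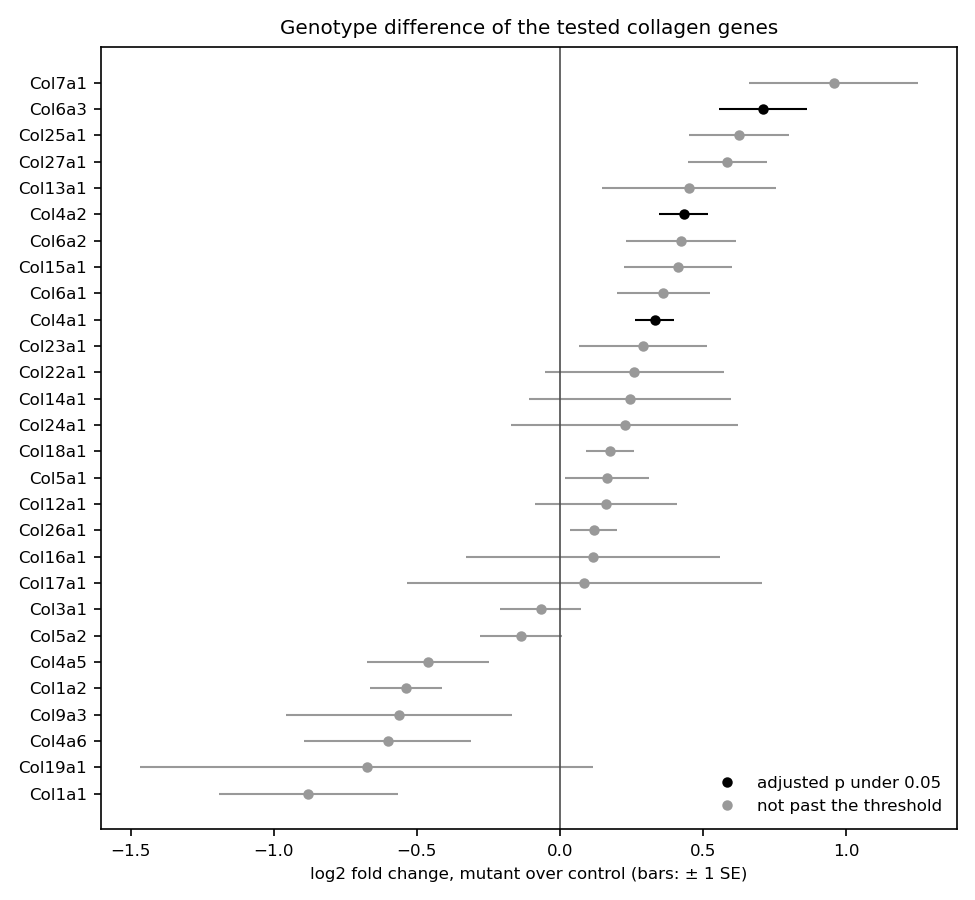
Log2 fold change of mutant over control for the 28 tested collagen genes, with 1 standard error of the edgeR fit to each side as bars, ordered by fold change. Genes with an adjusted p under 0.05 are black, and they are Col6a3 at 0.71, Col4a2 at 0.43 and Col4a1 at 0.33.

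Both main chains of the basement membrane network rose. Col4a1 and Col4a2 encode the alpha1 and alpha2 chains, which form the common type IV trimer. Col4a1 stood at 116, 98.2, 103, 103 and 100.4 CPM in controls 1 to 5 and at 133, 133, 132, 116, 124 and 142 CPM in mutants 1 to 6. The lowest mutant, mutant 4, was just above the highest control, control 1, so that the groups did not overlap. The fold was 1.26 (log2 0.33, SE 0.07, edgeR quasi-likelihood adjusted p = 0.0426). Col4a2 was at 62.0, 57.2, 58.6, 71.0 and 63.5 CPM in controls and at 80.4, 89.1, 87.1, 79.7, 74.5 and 94.9 CPM in mutants. Here too every mutant was above every control, and the fold was 1.35 (log2 0.43, SE 0.09, adjusted p = 0.0406 by the same test). With no litter block, edgeR gave adjusted p = 0.0563 for Col4a1 and 0.0549 for Col4a2, and their log2 fold changes were 0.32 and 0.43. With an index of T-rich transcripts that differed between the groups (described with type I collagen) as a covariate, it gave log2 0.36 and 0.33 with adjusted p = 0.222 and 0.33. Within litters, the log2 difference of Col4a1 was 0.32 in A, 0.46 in B, 0.26 in C and 0.30 in D. For Col4a2 they were 0.51, 0.70, 0.07 and 0.39, smallest in litter C. The ratio of Col4a2 to Col4a1 per kilobase was 0.603 to 0.772 in controls and 0.677 to 0.773 in mutants, so that these chains kept a narrow ratio in all 11 libraries.

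The genes of these chains lie head to head on chromosome 8, and their first exons overlap. Col4a1 covers chr8:11198423-11312826 on the minus strand and Col4a2 chr8:11312805-11449287 on the plus strand (GRCm38, GENCODE M9). The stretch of their starts is shown because the chains changed together and read apart only outside it. Capitals mark the 22 bases that are exonic in both transcripts, in RefSeq's GRCm38.p6 sequence of chr8:11312801-11312830, plus strand.
Col4a1 and Col4a2 starts: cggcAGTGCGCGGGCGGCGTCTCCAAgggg
Reads were counted without regard to strand, so a read over these bases cannot be given to either gene. The 22 bases are 0.295% of the exon bases of Col4a1.

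The other type IV chains did not pass the test. Col4a5 and Col4a6, a second head-to-head pair, on the X chromosome, encode chains of a trimer found in some epithelial and muscle basement membranes. Col4a5 was at 5.76, 8.13, 4.31, 8.08 and 7.08 CPM in controls, and mutants ran from 3.07 (mutant 5) through a median of 5.05 to 6.18. Col4a6 was at 3.13, 6.90, 1.85, 5.29 and 5.96 CPM in controls, and mutants ran from 1.46 through 3.03 to 5.11. They had log2 fold changes of -0.46 and -0.60 and adjusted p = 0.238 and 0.26 by edgeR. The groups differed in their mix of sexes. Xist was at 59.6 CPM in control 2, 69.3 CPM in control 4 and 62.1 CPM in mutant 2, and at most 0.552 CPM in the other libraries. Controls 2 and 4 were the highest for Col4a5, while mutant 2 was at 4.70 CPM. The part of sex in these values was not tested. Col4a3 and Col4a4, the chains of the kidney filter, had 25 and 30 reads over all libraries and were not tested.

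Markers of cells that lie on basement membranes were read beside these values. Of 5 endothelial markers, 0 passed the edgeR test, 0 had an unadjusted p under 0.05, and their summed level was 124 to 195 CPM in controls and 100.03 to 170 CPM in mutants. Of 6 surface ectoderm markers, 0 passed and 0 had an unadjusted p under 0.05, with sums of 130 to 264 and 148 to 253 CPM. Of 5 muscle markers, 0 passed and 4 (80%) had an unadjusted p under 0.05 by edgeR, against 21.4% of all tested genes. Lbx1 was higher (log2 0.82), and Myf5 (-1.25), Myod1 (-2.10) and Myog (-1.76) were lower. The list summed to 41.7 to 78.9 CPM in controls and 37.5 to 73.1 CPM in mutants. The part of these cells in the type IV values was not tested. Among 11 partners of type IV collagen in the basement membrane (laminin, nidogen, perlecan and related genes), 0 passed the edgeR test. Only 1 (9.09%) had an unadjusted p under 0.05 by edgeR, below the 21.4% of all tested genes. That was Hspg2, which encodes perlecan, at 31.6 ± 4.74 CPM in controls and 37.7 ± 3.43 CPM in mutants (log2 0.24, SE 0.09, edgeR adjusted p = 0.166).

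Type VI collagen is a trimer of the alpha1 and alpha2 chains with a further, longer chain, most often alpha3. Col6a3 (chr1:90765923-90843971, minus strand, GRCm38), which encodes alpha3, rose. It was at 4.70, 4.02, 6.54, 4.47 and 2.17 CPM in controls and at 7.69, 7.34, 4.97, 3.92, 5.33 and 10.4 CPM in mutants. The groups overlapped, because litter D was low in both genotypes and litter B high in both, and the mutants were higher in each litter. The fold was 1.64 (log2 0.71, SE 0.15, edgeR adjusted p = 0.0457), and the fit without the litter block gave log2 0.59 with adjusted p = 0.25. Col6a3 was called in 0 of the 11 edgeR fits that each left out a library, with log2 fold changes of 0.63 to 0.82 and adjusted p from 0.0534 to 0.179. Col6a1 was at 4.36, 6.18, 5.29, 3.72 and 4.90 CPM in controls and 4.78 to 8.79 in mutants (median 5.88). Col6a2 was at 4.08, 4.02, 3.05, 2.09 and 2.66 CPM in controls and 3.43 to 5.62 in mutants (median 3.86). Both were higher in mutants of all 4 litters, with log2 0.36 and 0.42, and neither passed (adjusted p = 0.229 each). Per kilobase, type VI chains summed to 1.88 ± 0.316 in controls and 2.51 ± 0.430 in mutants. Col6a4, Col6a5 and Col6a6 had 0, 2 and 37 reads in all.

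**Figure D4:**
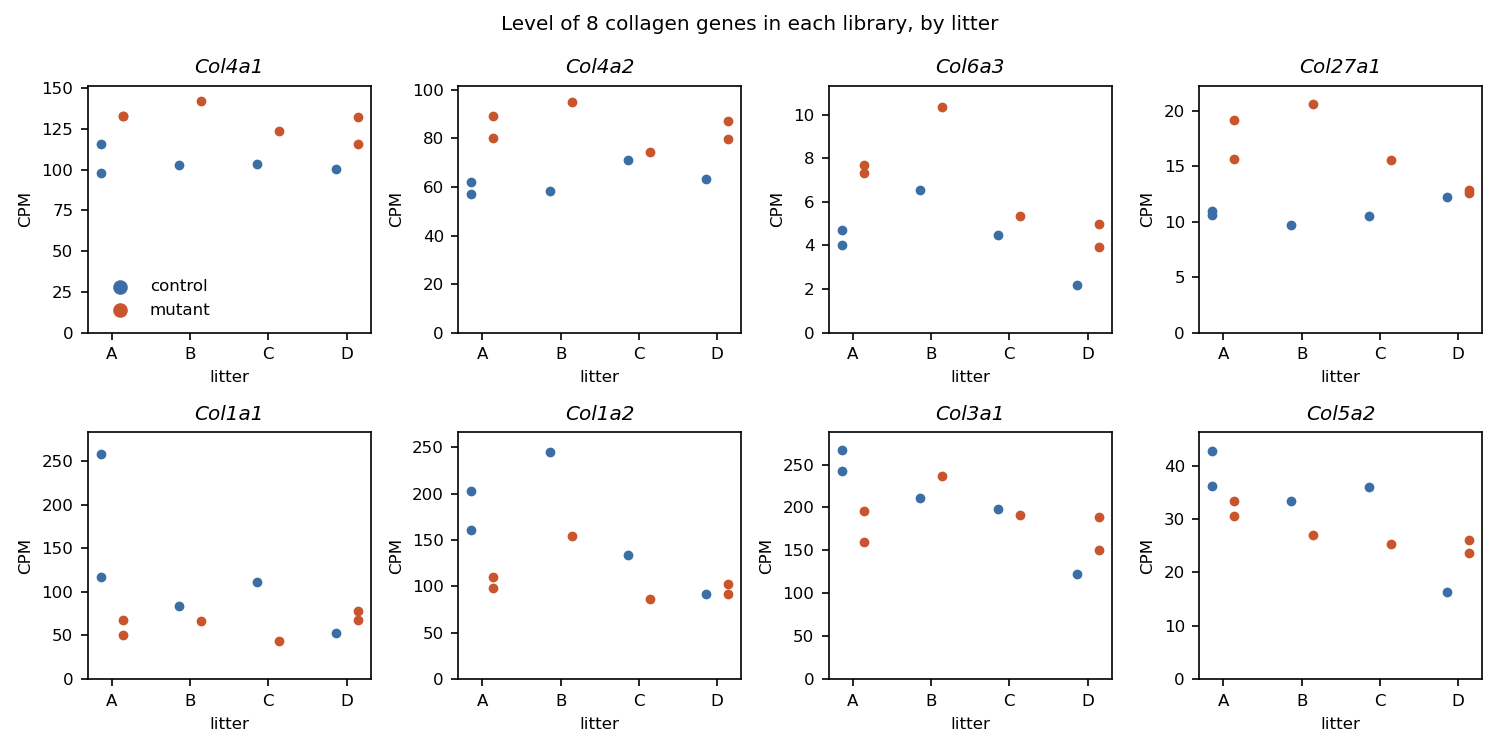
CPM per library of collagen genes by litter (A to D), controls beside mutants of the same litter, each panel with its own axis. Col4a1, Col4a2 and Col27a1 show every mutant above every control, while Col1a1 and Col1a2 are lower in the mutants of litters A to C and not in litter D.

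Type I collagen is a trimer of alpha1 chains, from Col1a1 (chr11:94936224-94953042, plus strand, GRCm38), and an alpha2 chain, from Col1a2 (chr6:4504814-4541544, plus strand), and is the main fibre of skin, tendon and bone. Col1a2 was at 203, 160.4, 245, 133 and 92.1 CPM in controls and at 109.96, 98.2, 92.3, 103, 86.4 and 154 CPM in mutants. Controls 1 to 3 were above every mutant, while control 5 lay among them. The fold was 0.689 (log2 -0.54, SE 0.13), just outside the threshold in the edgeR test (adjusted p = 0.0504). Col1a1 was at 117, 259, 84.0, 111 and 52.9 CPM in controls and at 67.6, 50.7, 67.6, 78.1, 43.9 and 66.3 CPM in mutants. Its log2 fold change was -0.88 with an SE of 0.31 (edgeR adjusted p = 0.139), and control 2 had the highest level by far. The ratio of Col1a1 to Col1a2 per kilobase ran from 0.648 in control 3 to 3.05 in control 2, and from 0.815 to 1.44 in mutants, so that control libraries differed more in this ratio than in that of the type IV chains.

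The fibrillar genes were then read litter by litter. Mutant minus control differences of log2 CPM for Col1a1 were -1.57 in A, -0.34 in B, -1.34 in C and 0.46 in D, and for Col1a2 -0.80, -0.67, -0.63 and 0.08. Col5a2, which encodes a chain of type V collagen that starts type I fibrils, gave -0.30, -0.30, -0.50 and 0.61. Col3a1 gave -0.53, 0.16, -0.06 and 0.46. In the edgeR test of genotype by litter, 0 members passed, where 0% of all genes did. Unadjusted, edgeR gave 5 members (17.9%) a p under 0.05, against 3.82% of all genes: Col1a1, Col1a2, Col3a1, Col5a2 and the FACIT chain Col16a1. The adjusted p of each by edgeR was 0.95. DESeq2 also called 0 members in this test. Litter D has only control 5 for its controls. Without control 5 no control of litter D is left, so that edgeR took the genotype difference from litters A to C. That edgeR fit gave log2 -1.26 for Col1a1 (adjusted p = 0.0271) and -0.73 for Col1a2 (adjusted p = 0.0101). It also called more of all genes than the fit with every library. With litter D left out, edgeR called Col1a2 (adjusted p = 0.0279) and not Col1a1.

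**Figure D5:**
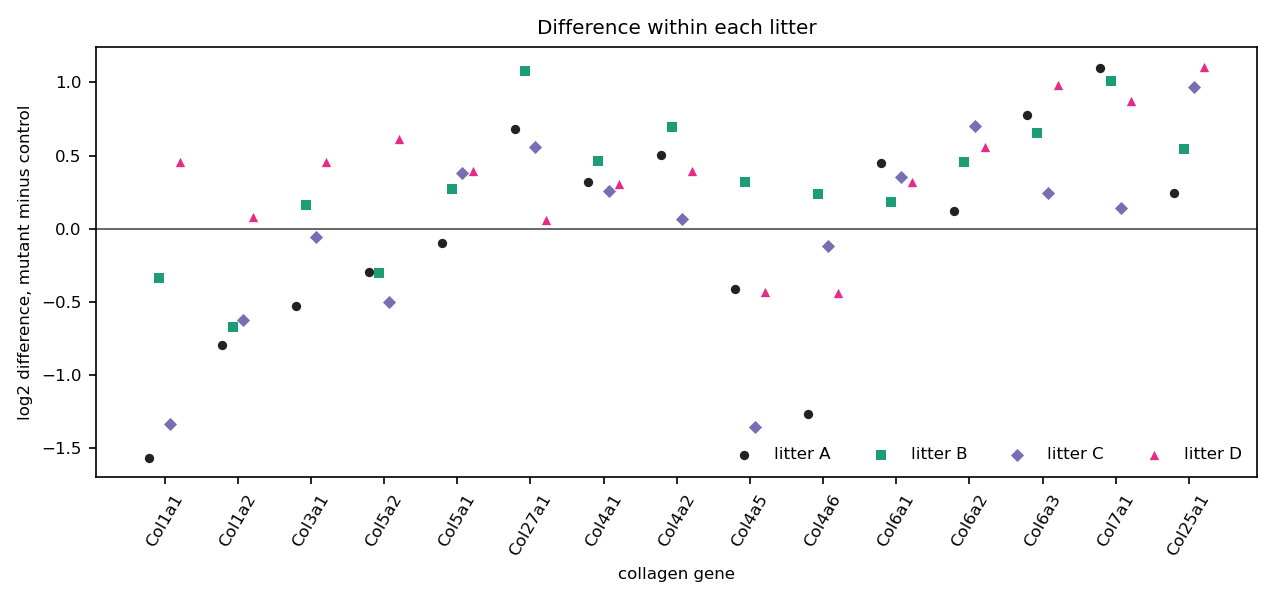
Mutant minus control difference in log2 CPM within each litter (A to D, by symbol) for collagen genes described in the text, with the line at 0 marking equal levels. Type IV chains Col4a1 and Col4a2 are above 0 in every litter, and Col1a1, Col1a2 and Col5a2 are below 0 in litters A to C and above it in litter D.

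Other measures of the libraries were read beside the type I values. Sox9, the cartilage precursor factor, was at 96.7 ± 56.5 CPM in controls and 50.68 ± 11.001 CPM in mutants (log2 -0.72, edgeR adjusted p = 0.0725). The 5 cartilage precursor markers summed to 68.8 to 232 CPM in controls and 66.8 to 90.6 CPM in mutants, and Acan and Matn1 were at or near 0. Of the 3 tested, 1 (33.3%) had an unadjusted p under 0.05 by edgeR, against 21.4% of all tested genes. An index of transcripts with long T runs (mean log2 level of genes with a run of at least 18 bases over those with at most 5) was 2.11 to 2.30 in controls 1 to 4. Control 5 had 1.86, mutant 5 had 2.11, and the rest of the mutants ran from 1.53 to 1.97. Col1a1 has a T run of 20 bases and is the only tested member with 18 or more, and the longest run of Col1a2 is 9 bases. With this index as a covariate, the log2 fold changes were -0.40 for Col1a1, -0.17 for Col1a2, 0.36 for Col4a1, 0.33 for Col4a2 and 0.77 for Col6a3, and edgeR called 0 members. In controls 1 to 5 Sox9 was at 110, 63.4, 187, 81.7 and 41.5 CPM. Control 2 was the highest control for Col1a1 (259 CPM), and control 3 was the highest for Col1a2 (245 CPM) and Sox9. Control 5 was the lowest control for Col1a1, Col1a2, Sox9 and the index. The sum of 5 somite and axial markers was 56.97 CPM in control 5 and 41.65 CPM in control 3. The other controls were at 24.81 to 31.71 CPM and mutants at 24.99 to 30.12 CPM. The 5 neural crest and Schwann precursor markers summed to 48.49 CPM in control 5. The other controls were at 23.88 to 26.79 CPM and mutants at 17.79 to 25.51 CPM. By edgeR 0 genes of either list passed. Unadjusted, 0 of 4 tested somite and 2 of 4 tested neural crest genes (both lower) had p under 0.05. The part of these measures in the type I values was not tested.

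Col3a1, which encodes type III collagen and often shares fibrils with type I, did not pass the test. It was at 266, 243, 211, 198 and 123 CPM in controls and at 196, 159, 189, 151, 191 and 236 CPM in mutants, with wide overlap (log2 -0.07, SE 0.14, edgeR adjusted p = 0.828). The direction of this small difference turned in several fits, to 0.04 without mutant 2 and 0.21 without litter A. The ratio of Col3a1 to Col1a2 per kilobase was 1.09 to 1.92 in controls and 1.85 to 2.80 in mutants. Promoters are shown for these fibrillar genes, which differ in the motif they hold, and for Col6a3, the called gene with the highest fold.

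The 150 bases before the RefSeq start were searched on both strands for the TATA box letters TATAAA, the CCAAT box letters CCAAT and the GC box letters GGGCGG, and capitals mark a match. The first is Col1a2 (chr6:4505468-4505617, plus strand), then Col3a1 (chr1:45311388-45311537, plus strand) and Col6a3 (chr1:90843972-90844121, minus strand), all in GRCm38.p6 and written in the direction of the gene. The Col1a2 window lies inside the gene span given above, because the RefSeq start is downstream of the start of that span.
Col1a2: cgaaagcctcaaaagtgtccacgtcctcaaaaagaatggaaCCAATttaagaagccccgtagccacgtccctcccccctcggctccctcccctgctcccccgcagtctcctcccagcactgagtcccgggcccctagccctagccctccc
Col3a1: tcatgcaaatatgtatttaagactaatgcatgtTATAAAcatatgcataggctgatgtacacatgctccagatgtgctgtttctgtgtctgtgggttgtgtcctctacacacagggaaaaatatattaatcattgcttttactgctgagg
Col6a3: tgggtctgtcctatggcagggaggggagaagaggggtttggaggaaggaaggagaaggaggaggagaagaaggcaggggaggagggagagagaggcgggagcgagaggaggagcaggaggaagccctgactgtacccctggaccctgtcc
The CCAAT of Col1a2 begins 109 bases before the start and the TATAAA of Col3a1 117 bases before it, and these letters are not in the Col6a3 window. Windows were on hand for 33 of the 41 members. Of 32851 mouse windows of this length, 7.57% held the TATA box letters, 24.5% the CCAAT box letters and 28.6% the GC box letters. A match to the CCAAT or GC box letters is thus common, and one to the TATA box letters less so. The windows of Col4a1 and Col4a2 both held CCAAT.

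Among the other fibrillar genes, Col5a1, the partner of Col5a2, was at 10.3, 16.8, 11.3, 9.53 and 10.4 CPM in controls and 11.6 to 13.8 CPM in mutants (median 13.3; log2 0.17, edgeR adjusted p = 0.559). Col5a2 was at 36.2, 42.7, 33.3, 36.0 and 16.3 CPM in controls and 23.6 to 33.4 CPM in mutants (median 26.6; log2 -0.14, adjusted p = 0.633). Col27a1, a fibrillar chain of growing cartilage, was chosen for description after its values were seen, because its groups did not overlap. It was at 10.96, 10.55, 9.70, 10.52 and 12.2 CPM in controls and at 15.7, 19.2, 12.8, 12.5, 15.6 and 20.6 CPM in mutants, with a fold of 1.5 (log2 0.58, SE 0.14) and an edgeR adjusted p of 0.0504. The margin between groups was narrow in litter D, where control 5 stood next to mutants 3 and 4 (log2 difference 0.06). DESeq2 called both Col27a1 (adjusted p = 0.00612) and Col1a2 (adjusted p = 0.00132). That fit called more genes of every kind, 6 of the 20 members it tested and 1160 of 12240 genes in all. Col24a1 had a log2 fold change of 0.23 (edgeR adjusted p = 0.793).

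No member of the remaining classes passed the edgeR test, and DESeq2 called Col25a1 among them. Col18a1, whose C-terminal fragment is endostatin and which lies in basement membranes with a heparan sulfate load, was at 96.5, 110.2, 94.9, 123 and 115 CPM in controls and 109.7 to 139 CPM in mutants (median 121; log2 0.18, edgeR adjusted p = 0.257). Col15a1, its relative, was at 3.36 to 5.54 and 4.30 to 8.71 CPM (log2 0.41, adjusted p = 0.234). Col7a1, the anchoring fibril of the skin, had the largest log2 fold change of the members above 1 CPM, 0.96 with an SE of 0.30. It was at 1.007, 0.772, 1.04, 1.10 and 0.631 CPM in controls and 0.940 to 2.49 in mutants (median 1.66), and did not pass (edgeR adjusted p = 0.0959). Col25a1, a transmembrane collagen known from motor innervation of muscle, was at 12.98, 8.34, 10.4, 7.03 and 5.47 CPM in controls and 10.6 to 15.2 in mutants (median 12.9; log2 0.63, edgeR adjusted p = 0.0724, DESeq2 adjusted p = 0.0134). Col23a1 was at 32.4, 22.3, 36.9, 23.1 and 10.02 CPM in controls and 14.5 to 40.6 CPM in mutants (log2 0.29, edgeR adjusted p = 0.49). Control 5 and mutant 4 of litter D were the lowest of their groups, while mutant 3 of the same litter was at 31.4 CPM. Col26a1 was at 67.7, 52.4, 59.0, 54.4 and 68.1 CPM in controls and 59.1 to 76.2 CPM in mutants (log2 0.12, adjusted p = 0.449). Col14a1, a FACIT chain of tendon and skin, ranged from 0.436 to 5.54 CPM in controls and from 1.78 to 6.18 CPM in mutants (log2 0.24, adjusted p = 0.742). Of 6 FACIT chains tested, 0 passed the edgeR test and 0 had an unadjusted p under 0.05. The other tested members, Col9a3, Col12a1, Col13a1, Col16a1, Col17a1, Col19a1 and Col22a1, lay between log2 -0.68 (Col19a1) and 0.45 (Col13a1), with edgeR adjusted p from 0.424 to 0.955.

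Litter was tested in the same fit. In the edgeR test of litter, 0 members passed, against 0.0885% of all genes. Unadjusted, edgeR gave 6 members (21.4%) a p under 0.05, against 13.5% of all genes: Col6a3, Col1a2, Col14a1, Col23a1, Col5a2 and Col4a6. The edgeR adjusted p was 0.101 for Col6a3, 0.13 for Col1a2 and 0.21 for Col14a1, and higher for the rest. DESeq2 called 3 of the 27 members it tested, Col1a2, Col6a3 and Col14a1. The share of all genes that DESeq2 called for litter was not counted, so that this number has no background beside it. Col6a3 was lowest on average in litter D and highest in litter B, and Col14a1 had the opposite order, with 5.54 CPM in control 5 and 0.436 CPM in control 3.

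The 13 members not tested had few or no reads. Col10a1 of hypertrophic cartilage had 4 reads over the 11 libraries, Col20a1 4, Col8a1 4, Col6a5 2 and Col6a4 0. Col8a2 had the most reads of the untested members, 57, followed by Col11a2 (45), Col6a6 (37), Col9a2 (37), Col28a1 (32), Col4a4 (30), Col4a3 (25) and Col5a3 (23).

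Genes that modify, fold, export, process, cross-link, bind or degrade collagen were taken as 8 lists of 76 genes, of which 69 were tested. In the edgeR test 0 passed, and 18 (26.1%) had an unadjusted p under 0.05, 10 higher and 8 lower, against 21.4% of all tested genes. The 69 had a median of -0.01 (log2). DESeq2 called 6, and 1160 over all genes, and the edgeR fit without control 5 also called 6, and 850 over all genes. In the chain modification list, 3 of 15 (20%) had an unadjusted p under 0.05, all higher, which is near the 21.4% of all genes. Ppib, a prolyl isomerase that works with the prolyl 3-hydroxylase complex, was at 299.9 ± 39.9 and 382 ± 35.6 CPM and higher in each litter (log2 0.33, edgeR adjusted p = 0.0546). In the folding and export list, 3 of 9 (33.3%) had an unadjusted p under 0.05, all lower. Kdelr2, a receptor that returns chaperones to the endoplasmic reticulum, was at 737 ± 194 and 450.02 ± 108 CPM, and control 5, at 446 CPM, lay among the mutants (log2 -0.66, adjusted p = 0.0546).

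Pcolce, an enhancer of C-propeptide removal, was at 202 ± 16.7 and 184 ± 11.8 CPM (log2 -0.15, edgeR adjusted p = 0.15), and 3 of 7 genes of its list (42.9%) had an unadjusted p under 0.05. Among cross-linking enzymes 0 of 4 had one, and the smallest p was that of Loxl2, a lysyl oxidase (log2 0.17, adjusted p = 0.674). Among the fibril partners 1 of 7 had one: Fmod, the small proteoglycan fibromodulin, at 4.32 ± 1.79 and 2.47 ± 0.798 CPM (log2 -0.78, adjusted p = 0.135). Ddr1, a collagen receptor kinase, was at 11.7 ± 2.24 and 8.99 ± 1.42 CPM (log2 -0.40, adjusted p = 0.168), the only 1 of 7 receptors. In the breakdown list 6 of 9 (66.7%) had an unadjusted p under 0.05, against 21.4% of all genes, 5 higher and 1 lower. Timp1, an inhibitor of matrix metalloproteases, was at 20.8 ± 6.11 and 31.8 ± 4.06 CPM and higher in each litter (log2 0.59, adjusted p = 0.0566), with control 5, at 30.3 CPM, among the mutants.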

How the data were processed

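Libraries were made from forelimb buds after Ribo-zero treatment of total RNA, and RNA with an integrity number below 8 was rejected, per the labels. The authors deposited unnormalized read counts, summed per gene name with featureCounts 1.4.6-p4 on GENCODE M9 (mm10) at a mapping quality of at least 10, per the file headers. STAR 2.5.4b is named in the submitters' processing notes. The header command sets no option for strand, so that antisense and overlapping genes were not separated. Reads of 11 libraries were used, each taken as an embryo of its own. In fits with a litter block, p-values measure the spread between embryos that remains after litter and genotype.

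Counts were analysed with edgeR 4.0.16 in R 4.3.3: filterByExpr with the design, TMM scaling, and the quasi-likelihood F test (two-sided) on litter plus genotype, with Benjamini-Hochberg adjustment over 15821 genes at 0.05. The same test was run on litter and on the interaction of litter with genotype (3 coefficients). The standard error is the log2 fold change over the square root of F. CPM use TMM-scaled totals, log2 CPM add a prior of 2 counts, and CPM per kilobase used the deposited exon lengths. The fit was tested on simulated counts. The design text speaks of 6 pairs and the header command lists 12 alignment files, and 11 libraries were analysed here. Which embryos were paired within a litter is not given in the sources used here, so the litter in the sample titles was the block. Replicate numbers only name libraries.

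The members, classes, gene lists and alternatives were chosen with earlier results of these data known. Genes given with values were the members past a threshold, the 3 highest in controls, the highest of each class, the 3 largest rises and falls above 1 CPM, trimer partners of these, and the gene with the smallest p of each list. Alternatives were 2 other scalings (RLE, upper quartile), no low-count filter or at least 1 CPM in 5 libraries, DESeq2 1.42.0, no litter block, each library or litter left out, the T-run covariate, and untrimmed totals for levels. Gene coordinates are those of the deposited counts (GENCODE M9), T runs and exon overlaps are from GENCODE M21, and promoters from RefSeq (GRCm38.p6). A further marker list is not reported here.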

Additional observations from a re-analysis of the deposited data

Results flagged for a closer look

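Each group's highest and lowest library was compared with its nearest neighbour for the 27 genes given with values, by Dixon's ratio at the 95% level. Of 108 comparisons 4 were past the critical value, where chance gives about 2.7, or 1 in 20 groups. Col1a2 was highest in mutant 6 of litter B at 154 CPM, with the next mutant at 109.96 CPM. Col5a1 was highest in control 2 at 16.8 CPM, with the next control at 11.3 CPM, and control 2 was also the highest library for Col1a1. Kdelr2 was highest in mutant 5 of litter C at 658 CPM, with the next mutant at 435 CPM. Fmod was lowest in mutant 6 at 0.920 CPM, with the next mutant at 2.44 CPM.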

How the results depend on the processing

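The count of called collagen genes, 3 by edgeR, was 5 with RLE scaling, 7 with no filter, 5 with at least 1 CPM in 5 libraries, 6 with DESeq2, 0 with no replicate block by litter, 0 with litter A, B or C left out, 2 with litter D left out (Col1a2 and Col27a1, so that Col4a1, Col4a2 and Col6a3 were each lost with any litter left out), and 0 with the T-run covariate; leaving out each library gave 0 to 5. For all genes, 345 calls became 1566 with no filter, 550 with at least 1 CPM in 5 libraries, 1160 with DESeq2, 13 with no replicate block, 2 with the T-run covariate, and 9, 3, 1 and 148 with litters A to D left out; leaving out each library gave 1 to 850. For the 8 lists, 0 became 10 with no filter, 3 with at least 1 CPM in 5 libraries and 6 with DESeq2, and 0 to 6 without a library. The litter test called 8 members with no filter and 3 with DESeq2, and 0 to 1 without a library. The interaction test called 4 with no filter. How many of all genes these litter and interaction fits called was not counted. The cause of these shifts was not tested. Of the 27 genes given with values, 24 kept their direction in all 22 alternatives. Col3a1 (log2 -0.07) ran from -0.23 to 0.041 without a library, and was 0.21 with litter A left out and 0.36 with the T-run covariate. Col14a1 ran from -0.015 to 0.61 without a library and was -0.016 with litter B left out, and Loxl2 ran from -0.025 to 0.26 and was -0.025 with litter B left out. Members below 1 CPM on average, such as Col9a3, Col19a1 and Col24a1, rest on few reads, and their fold changes have wide standard errors (0.40 for Col9a3, 0.79 for Col19a1 and 0.40 for Col24a1).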
